A study of Mus musculus with 43 samples.

Results

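The Clec genes, most of them C-type lectin domain genes and Clec16a no lectin receptor, are here those whose symbols begin with Clec. A gene was taken where a probe set carried such a symbol and no other, and the probe set with the highest mean over all arrays stood for a symbol with more than 1. This gave 33 of the 19752 genes on the Affymetrix Mouse Gene 1.0 ST array, from 34 probe sets, of which Clec4g had 2. RNA levels were read on 43 arrays. The mice were male C57BL/6 animals, 6 weeks old, with no other allele in the labels, and their immune cells were sorted by surface markers. Baseline arrays came from mice with no injection labelled, and interferon arrays from mice killed 2 h after 10000 U of interferon alpha under the skin; interferon alpha is a type I interferon, a secreted antiviral signal. By the sort markers in the labels, the types were neutrophils (Ly6G+), macrophages (F4/80+), dendritic cells (CD11c+ Flt3+), NK cells (NK1.1+), NKT cells (NK1.1+ TCRb+), T cells bearing CD4 or CD8, regulatory T cells (CD25+ CD4+) and gamma-delta T cells (TCRgd+). Each type had 3 baseline and 2 interferon arrays, except neutrophils with 2 baseline arrays and macrophages with 1 interferon array, and titles place all in the spleen except peritoneal macrophages. No vehicle-injected mice are labelled, so an effect of the injection and one of interferon cannot be told apart.

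C-type lectin receptors bind sugars, lipids or proteins on microbes, dead cells or other host cells through a conserved fold. Some, such as Dectin-1 and the receptors that pair with the FcRγ or DAP12 adaptor, activate the kinase Syk, while others carry an inhibitory ITIM motif that recruits phosphatases. The Clec2 proteins work the other way round, as ligands that NK cell receptors of the NKR-P1 family read on neighbouring cells.

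Array medians ran from 105 to 125 in intensity. In 41 of 43 arrays the most similar other array was of the same cell type; gamma-delta T cell baseline array 2 was closest to CD8+ T cell baseline array 1, and gamma-delta T cell interferon array 1 to NKT interferon array 2. For 8 of 8 marker lists checked, the list median on every baseline array of the list's own type was above all baseline arrays of the other types. CD4+ T cells had no list in this check, and the gamma-delta T cell list had 1 measured gene. B cell markers summed to 3222 to 12756 in intensity on gamma-delta T cell baseline arrays, against at most 5154 in the other types. The tissue of 4 arrays is in doubt: CD8+ T cell baseline arrays 1 and 2 carry blood as their source, and for macrophage baseline arrays 1 and 2 the preparation text speaks of spleen. On those macrophage arrays the peritoneal macrophage genes Gata6 (log2 levels 10.72 and 11.04, against 10.87 on array 3) and Timd4 (11.10 and 11.03, against 10.71) were high, and the splenic macrophage gene Spic was low (4.98 and 5.08, against 4.90). All 5 measured interferon response genes of a fixed list of 6 rose in every cell type. Nothing in the labels says that arrays of a group came from separate animals, so p-values measure the spread between these arrays only. In sorted bulk cells, fewer cells that express a gene and less RNA in each cannot be told apart.

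The members sit mostly side by side in the genome. In the RefSeq gene order of the assembly GRCm38.p6, Clec4a1, Clec4a3, Clec4a4, Clec4b1, Clec4a2, Clec4b2, Clec4n, Clec4d and Clec4e follow each other with no other coding gene between them, in what is called the Dectin-2 cluster. A further run, in the NK gene complex, holds Clec2h, Clec2i, Clec2g, Clec2e, Clec2d and Clec2m among Klrb1 receptor genes and goes on through Clec12a, Clec1b, Clec9a and Clec7a; in it Cd69 lies next to Clec2d. Clec2l lies elsewhere, and Clec2j was not placed here. RefSeq gave a promoter window for 26 of the 33 members. The 250 bases before the start are printed for 4 of the members called after interferon, Clec2d (chr6:129180365-129180614) and Clec4a1 (chr6:122921598-122921847), which rose, and Clec4a2 (chr6:123122440-123122689) and Clec4b2 (chr6:123172773-123173022), which fell, all on the + strand of GRCm38.p6 and read 5′ to 3′. Capitals mark matches, on either strand, to 1 of 3 patterns. The first is GAAA, any 2 bases and GAAA, the core of an interferon-stimulated response element; the second is GGAA, any 2 bases and GAAA, which ETS and IRF factors bind together; the third is TTC, any 3 bases and GAA, a STAT-type palindrome. The first 2 patterns share a GAAA stretch and can overlap.
Clec2d: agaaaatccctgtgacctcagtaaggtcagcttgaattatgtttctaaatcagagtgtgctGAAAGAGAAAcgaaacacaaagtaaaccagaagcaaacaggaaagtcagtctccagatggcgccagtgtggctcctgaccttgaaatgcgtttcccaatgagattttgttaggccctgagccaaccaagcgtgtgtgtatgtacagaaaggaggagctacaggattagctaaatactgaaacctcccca
Clec4a1: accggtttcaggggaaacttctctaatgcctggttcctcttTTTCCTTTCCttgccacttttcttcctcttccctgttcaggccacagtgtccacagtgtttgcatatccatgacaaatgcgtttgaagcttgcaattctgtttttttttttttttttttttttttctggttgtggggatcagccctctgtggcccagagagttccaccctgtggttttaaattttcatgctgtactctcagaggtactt
Clec4a2: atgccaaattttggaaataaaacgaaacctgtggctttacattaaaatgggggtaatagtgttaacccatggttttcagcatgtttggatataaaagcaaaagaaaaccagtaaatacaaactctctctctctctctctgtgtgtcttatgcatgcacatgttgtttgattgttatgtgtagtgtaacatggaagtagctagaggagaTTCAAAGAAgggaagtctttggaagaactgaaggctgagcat
Clec4b2: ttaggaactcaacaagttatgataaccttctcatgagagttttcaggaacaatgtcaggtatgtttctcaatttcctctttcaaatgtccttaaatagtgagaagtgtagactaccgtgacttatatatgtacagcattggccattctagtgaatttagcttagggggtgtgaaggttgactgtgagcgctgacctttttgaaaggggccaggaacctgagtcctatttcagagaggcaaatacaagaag
Clec2d held GAAAGAGAAA from 189 to 180 bases before its start, a match that 2.98% of all 32851 promoter windows and 2 of the 26 members had. Clec4a1 held a match to the second pattern on the opposite strand (2.30% of all windows, 3 members) and Clec4a2 a match to the third (7.02% of all windows, 1 member). Clec4b2 had none of the 3 in its window, and neither had Clec4a3 or Clec9a, which were also called after interferon and are not printed. Clec4a4, called in both directions, had no promoter window and was not searched. The other matches were in members that were not called, Clec4b1 (first pattern), Clec2i and Clec7a (second). These matches describe letters and not bound sites.

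At baseline, the Clec genes were mainly genes of neutrophils, dendritic cells and macrophages. Of the 33, 20 differed among the 9 cell types (60.6%, against 38.8% of all genes), where a call needs an adjusted p below 0.05 and, here, a range of group means of at least 1 on the log2 scale. Compared with the mean of the other 8 types, 13 members were higher in neutrophils (6.03% of all genes), 11 in dendritic cells (4.84%) and 8 in macrophages (6.16%). Over all types these were 32 of 297 pairs of a gene and a type (10.8%, against 3.02% for all genes). None was called higher in CD4+, CD8+, regulatory or gamma-delta T cells, NK or NKT cells by limma, against 1.07%, 1.81%, 2.07%, 0.876%, 2.39% and 1.93% of all genes, while 2, 1, 3, 5, 1 and 4 members were higher there at an unadjusted p below 0.05. Lower than the mean of the other types in these 6 were 11, 10, 10, 8, 9 and 4 members, against 2.35%, 2.68%, 1.95%, 1.44%, 2.30% and 1.45% of all genes, and 1 member each was lower in dendritic cells (Clec4e; 2.48% of all genes), macrophages (Clec2d; 3.73%) and neutrophils (Clec2i; 10.1%). These comparisons share arrays, since the mean set against 1 lymphocyte type holds the other lymphocyte types and also neutrophils, dendritic cells and macrophages. A gene high in all lymphocytes is thus hard to call higher in 1 of them, and the higher and lower counts are not independent. In 15 members the highest group mean was at least 8 on the log2 scale, and levels below are log2 intensities, which can be compared between arrays but not between genes.

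**Figure D1:**
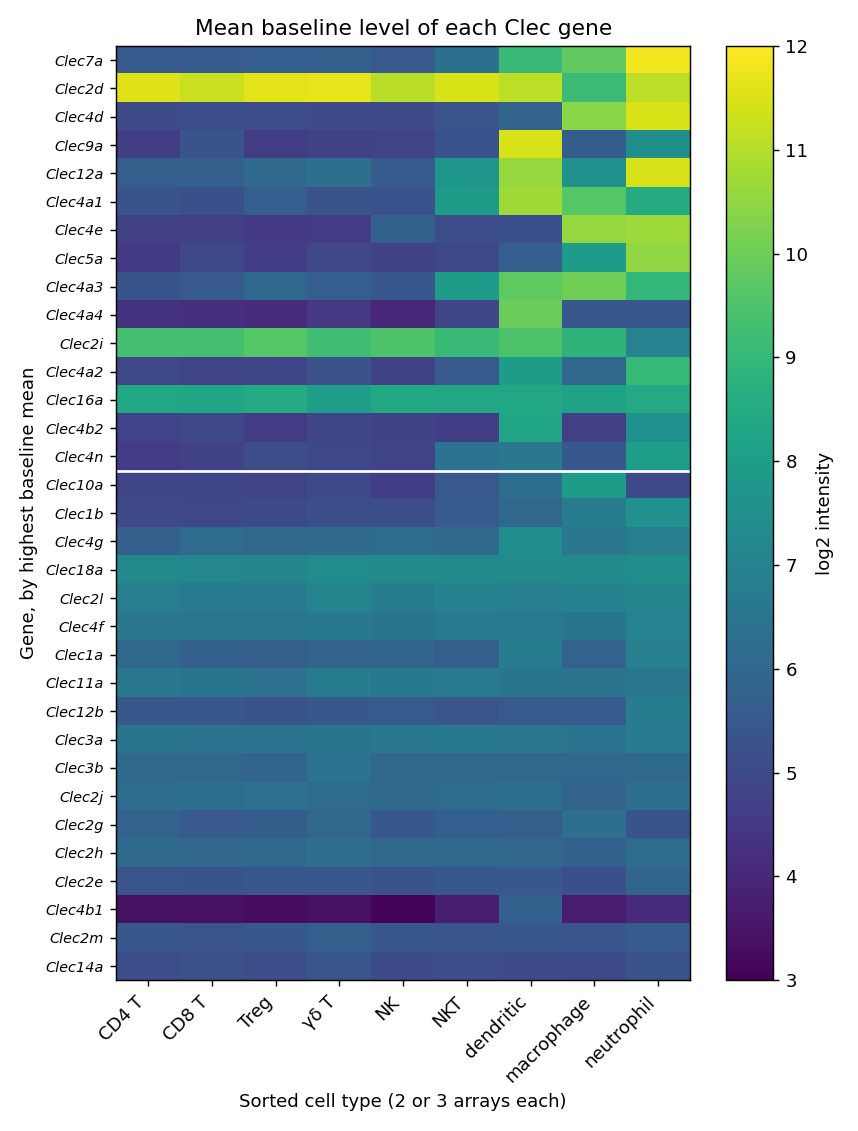
Mean baseline log2 intensity of the 33 Clec genes (rows, ordered by their highest group mean) in 9 sorted cell types (columns, 3 arrays each, neutrophils 2). Above the white line are the 15 genes with a group mean of at least 8; most are bright in the 3 right-hand columns, while Clec2d, Clec2i and Clec16a are bright across the lymphocytes. Colours are not comparable between genes.

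Among the activating receptors, Clec7a, which encodes Dectin-1, the receptor for fungal beta-glucans, stood at 11.79 and 11.92 in neutrophils. It lay at 9.37, 9.95 and 10.06 in macrophages, at 8.94 to 9.16 in dendritic cells, and between 5.27 and 6.48 on the 18 lymphocyte arrays. The 3 groups did not overlap with the lymphocytes, and neutrophils exceeded macrophages by 2.06 (SE 0.25, adjusted p = 2.47e-08). Macrophages and dendritic cells differed by 0.71, short of the change required for a call.

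Clec4d and Clec4e, which encode MCL and Mincle, a pair of receptors for mycobacterial glycolipids, were high in neutrophils and macrophages. Clec4d was at 11.38 and 11.58 in neutrophils and at 10.09, 10.36 and 10.72 in macrophages, a difference of 1.09 (SE 0.21, adjusted p = 7.79e-05), and no other baseline array passed 6.06, the highest dendritic cell array. Clec4e was at 10.44 and 10.92 in neutrophils and at 9.89, 10.84 and 10.95 in macrophages, which overlapped (difference 0.12, SE 0.31, adjusted p = 0.783). Dendritic cells were at lymphocyte levels for Clec4e, between 4.83 and 5.50. Clec5a, whose product MDL-1 signals through DAP12, stood at 10.38 and 10.64 in neutrophils, 2.53 above macrophages (SE 0.31, adjusted p = 3.32e-08), where it spread from 6.99 to 8.94. Clec4n, which encodes the mannan receptor Dectin-2, was highest in neutrophils (7.77 and 8.25), 1.41 above dendritic cells (SE 0.31, adjusted p = 0.000447).

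Clec9a encodes DNGR-1, with which cross-presenting dendritic cells detect the actin of dead cells. It was at 11.11, 11.56 and 11.74 in dendritic cells and at 7.72 and 7.25 in neutrophils, with every other baseline array at or below 6.26. The step from dendritic cells to neutrophils was 3.98 (SE 0.35, adjusted p = 2.43e-11), and that from neutrophils to macrophages 1.81 (SE 0.35, adjusted p = 7.45e-05). Beside the neutrophil value, the dendritic marker list summed to 1890 and 2060 in intensity on the neutrophil baseline arrays. The same list summed to 3349 to 4485 in NK cells and to 1964 to 2488 in CD8+ T cells, where Clec9a averaged 4.86 and 5.30. It was lower in CD4+ T cells, regulatory T cells and macrophages, and overlapped in gamma-delta T and NKT cells. The part of these markers in the neutrophil value was not tested.

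The DCIR genes of the Dectin-2 cluster were split among the same 3 types. Clec4a4 encodes DCIR2, an inhibitory receptor of the dendritic cells that prime CD4+ T cells, and was at 9.76 to 10.18 in dendritic cells, 4.47 above the next type (SE 0.23, adjusted p = 2.54e-17). Clec4a2 encodes the ITIM receptor DCIR, and was at 8.60 and 9.43 in neutrophils and 7.70 to 8.06 in dendritic cells, a difference of 1.09 (SE 0.34, adjusted p = 0.0125). Clec4a1 and Clec4a3 encode relatives of DCIR without an ITIM. Clec4a1 averaged 10.72 in dendritic cells, 9.62 in macrophages, 8.55 in neutrophils and 7.92 in NKT cells, and no neighbours in that order passed the test, whereas NKT cells exceeded regulatory T cells by 2.23 (SE 0.47, adjusted p = 0.00083). Clec4a3 averaged 10.04 in macrophages, 9.77 in dendritic cells, 8.96 in neutrophils and 7.94 in NKT cells, again with no called step before the drop of 1.94 to regulatory T cells (SE 0.43, adjusted p = 0.00129). Clec4b2, a receptor gene of the DCAR type that couples to FcRγ, averaged 8.28 in dendritic cells and 7.53 in neutrophils, and at most 4.96 in the other types. Clec12a encodes MICL, an ITIM receptor for uric acid crystals, and averaged 11.44 in neutrophils and 10.61 in dendritic cells, a difference of 0.84 that did not pass (SE 0.40, adjusted p = 0.123).

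In NKT cells these myeloid receptors differed widely between arrays. Clec4a1 was at 9.27, 6.34 and 8.14 on NKT baseline arrays 1 to 3, where no other lymphocyte array exceeded 5.86. Clec12a was at 8.29, 6.62 and 8.31 on the same arrays. Array 2 was the lowest for both genes. The median of 3 red pulp macrophage markers (Spic, Vcam1 and Hmox1) was 9.67, 8.66 and 9.90 on these arrays, with array 2 again the lowest, against at most 8.28 on the baseline arrays of the other lymphocyte types; its part in the NKT levels was not tested.

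3 bright members followed another pattern. Clec2d, which encodes Clr-b, the ligand of the inhibitory NK receptor NKR-P1B, averaged between 11.08 and 11.70 in 8 types and 9.12 in macrophages, 1.95 below the next type (SE 0.16, adjusted p = 1.64e-12). Clec2i, which encodes Clr-g, a ligand of NKR-P1F, averaged between 8.84 and 9.61 in 8 types and 6.98 in neutrophils, 1.86 below macrophages (SE 0.18, adjusted p = 2.45e-10). Clec16a, which encodes a cytoplasmic regulator of endosomes and mitophagy and is no lectin receptor, averaged between 8.0 and 8.52 in all 9 types, a range that did not pass the test.

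The receptors that read the Clec2 ligands were highest in NK cells. Klrb1b, which encodes NKR-P1B, averaged 11.84 (SD 0.21, n = 3) at baseline in NK cells, 8.32 in NKT cells and 7.59 in gamma-delta T cells. Klrb1f, which encodes NKR-P1F, averaged 12.71 (SD 0.09, n = 3) in NK cells, 10.33 in NKT cells and 9.88 in dendritic cells. No test was run on these baseline values.

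The other 18 members stayed below a group mean of 8 in every type. Clec10a, which encodes the galactose receptor MGL1, was higher in macrophages than in the other types by 2.79 (SE 0.20, adjusted p = 1.03e-13), at 7.68 to 8.35. Clec1b, which encodes the podoplanin receptor CLEC-2 of platelets, was higher in neutrophils by 2.10 (SE 0.20) and in macrophages by 1.21 (SE 0.17). The 5 measured platelet and megakaryocyte markers summed to 3587 to 4735 in intensity on macrophage baseline arrays and to 641 to 844 on those of neutrophils, against 408 to 1006 in the other types. In macrophages Pf4 made up most of that sum (log2 levels 11.60, 12.08 and 11.89), while the platelet genes Ppbp (5.19 to 5.69), Gp9 (6.11 to 6.86) and Itga2b (6.51 to 6.95) were lower there than on the neutrophil arrays. The part of platelet RNA in the Clec1b levels was not tested. Clec4b1 and Clec4g were higher in dendritic cells, by 2.28 and 1.28, and Clec12b in neutrophils, by 1.31. The call for Clec4g rests on the probe set used, since averaging its 2 probe sets gave a difference of 0.65, which is not called. Clec1a differed among the types (range of group means 1.20), and the other 12, Clec18a, Clec2l, Clec4f, Clec11a, Clec3a, Clec3b, Clec2j, Clec2g, Clec2h, Clec2e, Clec2m and Clec14a, were not called as differing. Their ranges of group means ran from 0.27 (Clec3a) to 0.97 (Clec2g). Among these are Clec4f, a galactose receptor of Kupffer cells in the liver, and Clec3b, which encodes the secreted protein tetranectin.

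Interferon raised Clec2d, Clec4a1, Clec4a3 and Clec4a4 and lowered Clec4a2, Clec4a4, Clec4b2 and Clec9a, each in 1 to 3 cell types. Of 297 pairs of a member and a cell type, 7 were raised (2.36%, against 1.64% for all genes) and 4 were lowered (1.35%, against 0.659%), where a call needs an adjusted p below 0.05 and a change of at least 1 on the log2 scale. The 11 pairs involved 7 of the 33 members (21.2%, against 9.90% of all genes called in at least 1 type). Lack of overlap between groups is given below with the array values, but members without a call showed it too, such as Clec4d in NK cells. How often it occurred among all genes was not counted. The median change of the members lay between -0.12 (dendritic cells) and 0.15 (neutrophils), and that of all genes between -0.10 (NKT cells) and 0.08 (neutrophils). In CD4+, CD8+, regulatory and gamma-delta T cells limma called no member in either direction, against 0.901%, 1.00%, 1.11% and 1.53% of all genes raised there and 0.0658%, 0.319%, 0.0253% and 0.683% lowered. None was called as lowered in NK cells (0.537% of all genes), NKT cells (0.380%) or macrophages (0.263%), where 1, 2 and 2 members were lower at an unadjusted p below 0.05. At an unadjusted p below 0.05, 3, 1, 0 and 1 members were higher in these 4 types, and 0 were lower in any of the 4. In the 9 types together, no member was called on the mean change (1.32% of all genes either way), with 6 higher and 1 lower at an unadjusted p below 0.05. By the adjusted p alone, 3 members passed on the mean (27.0% of all genes), Clec2d, Clec4a4 (0.25) and Clec2i (-0.24).

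**Figure D2:**
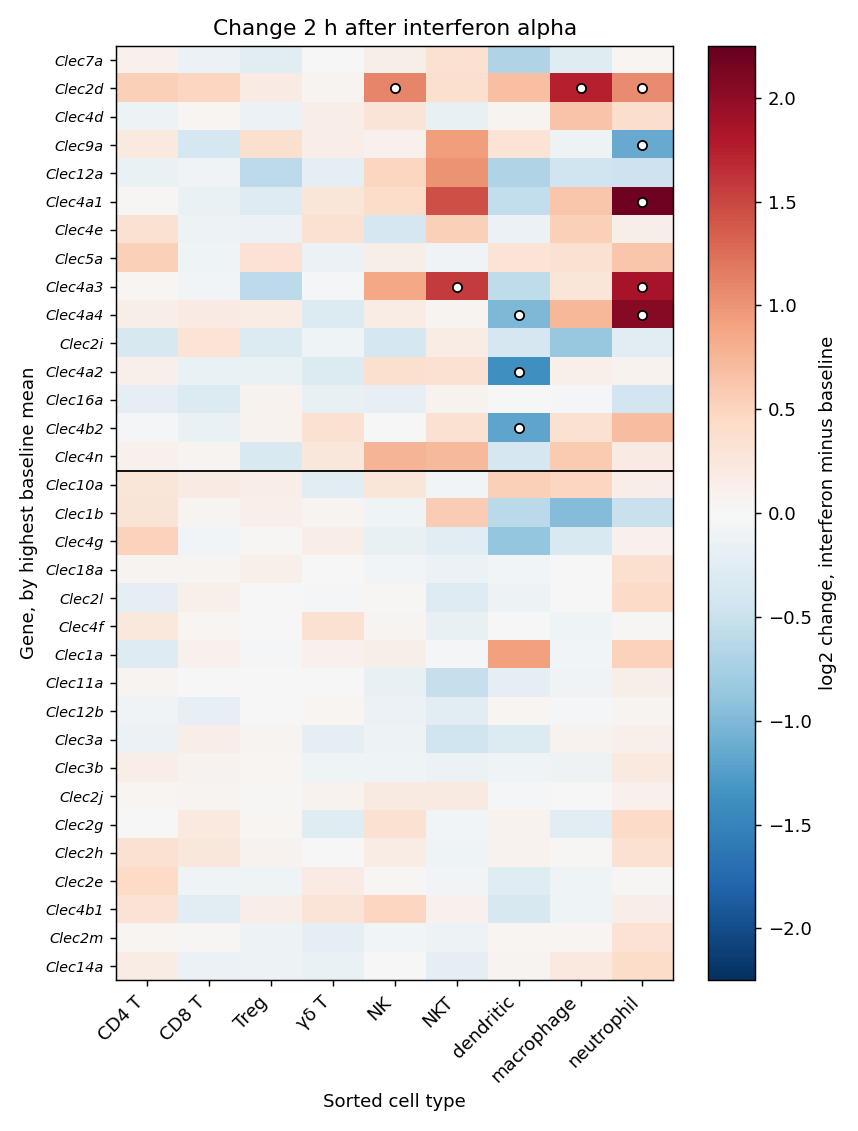
Log2 change from baseline to 2 h after interferon alpha for the 33 Clec genes (rows, as in the map of baseline levels) in 9 cell types (columns), red higher and blue lower. White dots mark the 11 called changes, which lie in NK cells (1), NKT cells (1), dendritic cells (3), macrophages (1) and neutrophils (5).

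Clec2d was raised in 3 cell types, in NK cells, macrophages and neutrophils. In macrophages it went from 9.17, 9.29 and 8.92 to 10.88 on the single interferon array, a rise of 1.76 (SE 0.22, 3.38-fold, adjusted p = 1.19e-06). In NK cells it went from 11.09, 11.38 and 10.76 to 12.04 and 12.31, a rise of 1.10 (SE 0.18, 2.14-fold, adjusted p = 6.30e-05). In neutrophils it went from 11.02 and 11.18 to 12.17 and 12.18, a rise of 1.07 (SE 0.19, 2.10-fold, adjusted p = 0.000151). The arrays of the 2 conditions did not overlap in these 3 types, where 1.35%, 1.25% and 2.43% of all genes were raised. The macrophage interferon array was still below the baseline mean of each other type.

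The other 6 types moved less. Dendritic cells went from 11.10, 11.01 and 11.16 to 11.82 and 11.70, a rise of 0.67 with an adjusted p of 0.012 that is short of the change required. CD4+ T cells went from 11.51, 11.51 and 11.61 to 12.02 and 12.13, a change of 0.53 (SE 0.18, adjusted p = 0.154), without overlap. CD8+ T cells went from 11.34, 11.35 and 11.16 to 12.14 and 11.38, a change of 0.48 (SE 0.18, adjusted p = 0.184) that the first interferon array carried. In NKT cells (11.28, 11.59 and 11.61, then 11.86 and 11.84) the change was 0.35. In regulatory T cells (11.67, 11.75 and 11.44, then 11.74 and 11.87) it was 0.19, and in gamma-delta T cells (11.78, 11.60 and 11.73, then 11.60 and 11.92) 0.06, the latter turning to -0.01 after quantile normalisation. The mean change over the 9 types was 0.69 (SE 0.06, adjusted p = 4.81e-11), below the size needed for a call. The effect in macrophages exceeded the mean effect in the other 8 types by 1.20 (SE 0.23, adjusted p = 0.00497), where 0.258% of all genes were higher in this way. Over all types 5 of 297 pairs differed from the other types by this test (1.68%, against 0.510% for all genes). With baseline array 3 alone the macrophage difference was 1.43 (adjusted p = 0.0925).

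**Figure D3:**
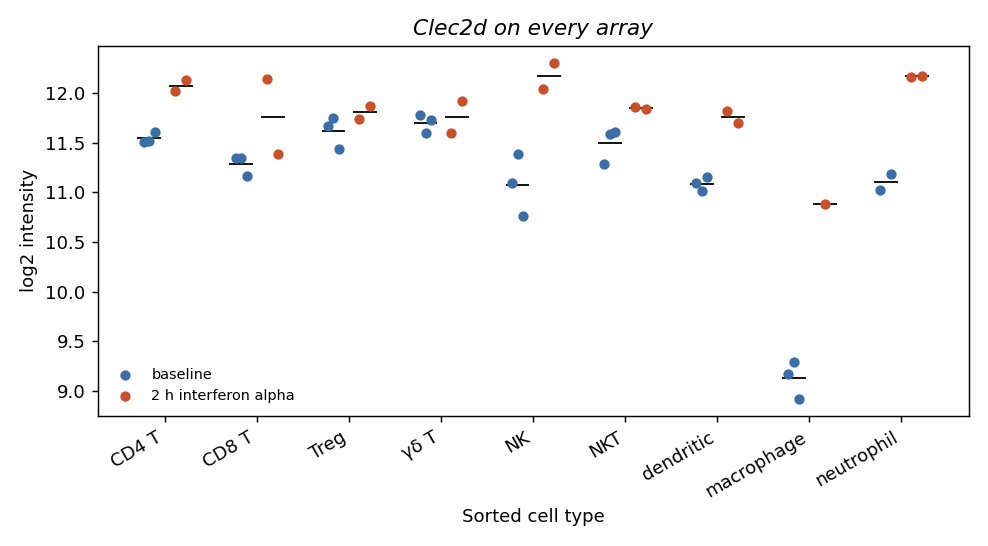
Log2 intensity of Clec2d on each of the 43 arrays, by cell type, at baseline (blue) and 2 h after interferon alpha (red), with black lines at group means. Macrophages start lowest, at 8.92 to 9.29, and reach 10.88, and the interferon arrays of NK cells and neutrophils lie above all baseline arrays of their type.

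The size of the Clec2d call was close to its limit in 2 types. Its rise in NK cells was 0.96 without NK interferon array 2 and 0.94 without NK baseline array 3, and in neutrophils 0.99 without baseline array 1 and 0.93 after quantile normalisation, each still at an adjusted p below 0.05. The neighbouring gene Cd69, which encodes an early activation marker with a C-type lectin domain, rose in all 9 types, from 1.20 (SE 0.25) in regulatory T cells, where its adjusted p was 0.125 without interferon array 2, to 4.13 (SE 0.25) in dendritic cells. Clec2d and Cd69 were both lowest in macrophages at baseline, where Cd69 averaged 4.40. Cd69 was also low in dendritic cells, at 6.17, 6.18 and 6.77, where Clec2d averaged 11.09. Clec2i was not called in any type, and its change was lowest in macrophages, at 8.74, 8.76 and 9.01 before and 7.98 after (change -0.85, SE 0.23, adjusted p = 0.0372).

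On the receptor side, 7 of 7 partner genes were measured. Klrb1 was lowered in NK cells, where it fell by 1.30 (SE 0.25, adjusted p = 0.000961), with a change of -0.82 (adjusted p = 0.218) without NK interferon array 2. Klrb1b in NK cells was at 12.01, 11.60 and 11.90 at baseline and at 11.02 and 10.67 after interferon, without overlap. It averaged 11.84 and then 10.84, a fall close to the size required, and was not called there. In gamma-delta T cells Klrb1a fell by 1.75 (SE 0.35), Klrb1b by 1.17 (SE 0.27) and Klrb1c by 1.93 (SE 0.28), where 0.683% of all genes were lowered. Klrb1a was at 8.24, 6.19 and 5.97 before and 4.94 and 5.17 after, and without baseline array 1 its change was -1.03 (adjusted p = 0.00349). The change of Klrb1b was -0.97 without that array and -0.84 (adjusted p = 0.26) without interferon array 2, both below the size required. Beside these, 2 of 6 NK markers were lowered and 1 was raised in gamma-delta T cells, Klrb1c being in that list too, and the list summed to 1835 to 4309 before and 2738 to 2852 after; its part in the falls was not tested.

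In neutrophils, 3 DCIR genes rose together with Clec2d, which made 4 members raised (2.43% of all genes) and 1 lowered (2.85%). Clec4a1 went from 8.26 and 8.83 to 10.89 and 10.59, a rise of 2.20 (SE 0.58, 4.58-fold, adjusted p = 0.0093). Clec4a3 went from 8.91 and 9.01 to 10.88 and 10.75, a rise of 1.85 (SE 0.53, 3.61-fold, adjusted p = 0.0168). Clec4a4 went from 5.31 and 5.60 to 7.75 and 7.27, a rise of 2.06 (SE 0.28, 4.16-fold, adjusted p = 2.62e-06). Baseline and interferon arrays did not overlap for any of the 3. Uncalled members without overlap in neutrophils were Clec11a, Clec12a, Clec14a, Clec16a, Clec18a, Clec1a, Clec1b, Clec2g, Clec2h, Clec2l, Clec4b2, Clec4d, Clec4g and Clec5a. Lack of overlap thus does not set the 3 rises apart. After interferon the neutrophil arrays of Clec4a1 lay within the range of the dendritic cell baseline arrays (10.55 to 10.93), those of Clec4a3 above it (9.61 to 9.96) and those of Clec4a4 below it.

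The ITIM receptor gene Clec4a2, in the same cluster, was at 8.60 and 9.43 and then at 9.0 and 9.17 in neutrophils, with overlap. Clec4b2 went from 7.34 and 7.71 to 8.05 and 8.39, a change of 0.69 (adjusted p = 0.0211) short of the size required. The rise of Clec4a4 exceeded the mean effect in the other 8 types by 2.03 (SE 0.30, adjusted p = 2.88e-05), as 1.04% of all genes did, and those of Clec4a1 and Clec4a3 did not pass that test. The calls for Clec4a1 and Clec4a3 are less firm: Clec4a1 was at adjusted p = 0.121 without neutrophil baseline array 1 and 0.106 without interferon array 1. Clec4a3 was at 0.108 and 0.0835 without baseline arrays 1 and 2, at 0.131 without interferon array 1 and at 0.0507 after quantile normalisation. The p-values of these 2 genes also hold the spread of other groups, since the fit shares 1 spread per gene. NKT cells spread most, with SDs of 1.48 and 2.00 at baseline and after interferon for Clec4a1 and 1.13 and 1.89 for Clec4a3. The neutrophil SDs were 0.40 and 0.21 for Clec4a1 and 0.07 and 0.10 for Clec4a3. Whether probes of these related genes read each other's RNA was not tested.

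For Clec9a, only dendritic cells were above neutrophils at baseline. It fell in neutrophils by 1.14 (SE 0.38, 2.20-fold, adjusted p = 0.0474), from 7.72 and 7.25 to 6.57 and 6.12. The groups did not overlap, yet the call held in only 17 of 42 fits that left out an array, and its adjusted p was 0.0743 with a term for the preparation wording and 0.15 with array weights. In the neutrophil arrays, 6 of 9 measured B cell markers were lowered, and the list summed to 2956 and 5154 in intensity at baseline and to 768 and 843 after interferon. The dendritic list summed to 1890 and 2060 at baseline and to 958 and 1286 after, with 1 of 8 markers lowered (Itgax, by 1.64). The cDC2 list summed to 5244 and 5372 at baseline and to 1834 and 2589 after, with 1 of 4 markers lowered (Sirpa). The plasmacytoid dendritic list summed to 648 and 696 at baseline and to 1230 and 1529 after, with 2 of 5 markers raised (Bst2 and Tcf4). That list also had 1 or 2 markers raised in each other type except macrophages. The macrophage list overlapped, at 13533 and 14715 and then 12070 and 14708, with Fcgr1, a high-affinity Fc receptor gene, raised and Adgre1 lowered. The part of these markers in the neutrophil results was not tested. In neutrophils, preparation wording and treatment cannot be told apart.

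**Figure D4:**
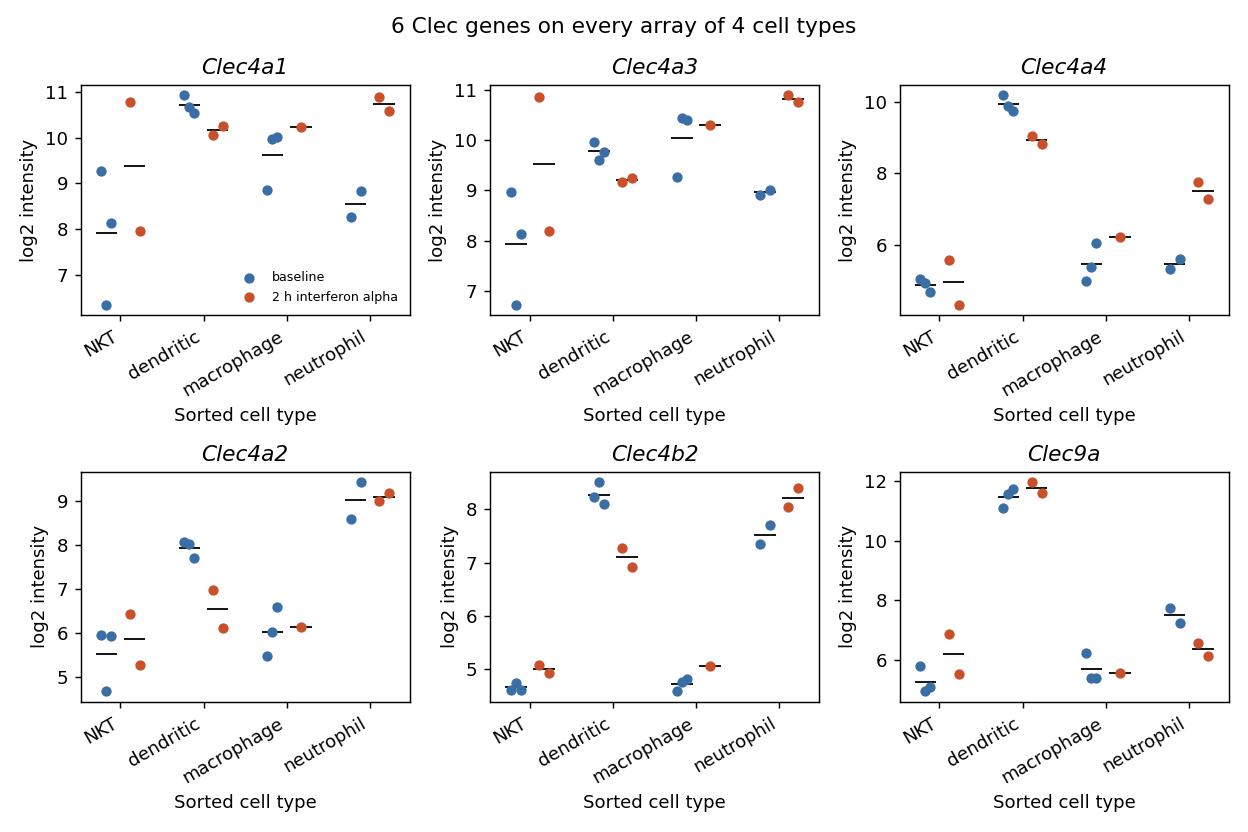
Log2 intensity of 6 Clec genes on each array of NKT cells, dendritic cells, macrophages and neutrophils, at baseline (blue) and after interferon (red), with black lines at group means; each panel has its own scale. Clec4a1, Clec4a3 and Clec4a4 rise in neutrophils and Clec4a4, Clec4a2 and Clec4b2 fall in dendritic cells without overlap, and the NKT arrays of Clec4a1 and Clec4a3 spread over about 4 log2 units.

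Dendritic cells lowered 3 members and raised none (0.810% and 2.34% of all genes). Clec4a2 went from 8.06, 8.01 and 7.70 to 6.98 and 6.11, and fell by 1.38 (SE 0.34, 2.59-fold, adjusted p = 0.00731). Clec4a4 went from 10.18, 9.88 and 9.76 to 9.06 and 8.81, and fell by 1.01 (SE 0.26, 2.01-fold, adjusted p = 0.0108). Clec4b2 went from 8.22, 8.51 and 8.10 to 7.28 and 6.92, and fell by 1.18 (SE 0.19, 2.26-fold, adjusted p = 2.54e-05). None of the 3 genes had overlapping groups. This was also so for the uncalled Clec11a, Clec12a, Clec18a, Clec1a, Clec1b, Clec2d, Clec2e, Clec2g, Clec4a1, Clec4a3, Clec4g, Clec4n and Clec7a. Lack of overlap thus does not set the 3 falls apart. All 3 differed from the mean effect in the other 8 types, by -1.42 (SE 0.36, adjusted p = 0.0252), -1.41 (SE 0.28, adjusted p = 0.0019) and -1.38 (SE 0.20, adjusted p = 2.52e-05), where 0.304% of all genes were lower in this way.

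Clec4a4 thus changed in opposite directions in dendritic cells and neutrophils. Clec9a, by contrast, was at 11.11, 11.56 and 11.74 before and 11.97 and 11.59 after interferon in dendritic cells, with overlap. Clec7a (9.15, 9.16 and 8.94, then 8.39 and 8.44) and Clec12a (10.60, 10.53 and 10.69, then 9.88 and 9.98) were lower without overlap, but their changes of -0.67 (adjusted p = 0.118) and -0.68 (adjusted p = 0.494) did not pass. Clec1a, whose product CLEC-1 is a receptor of dendritic and endothelial cells, changed by 0.93 (SE 0.20, adjusted p = 0.00158) and Clec4g by -0.87 (SE 0.19, adjusted p = 0.00267), both short of the size required. Without dendritic cell interferon array 2 none of the 3 falls was called, with changes of -0.94 for Clec4a2, -0.88 for Clec4a4 and -0.998 for Clec4b2, the last still at an adjusted p of 0.00879. Against baseline array 3 alone, the baseline array with the same preparation wording, the changes were -1.15 (adjusted p = 0.167), -0.83 (adjusted p = 0.398) and -1.0 (adjusted p = 0.0104). Clec4a4 was also under the required size with a replicate block (-0.95), with an offset of 16 (-0.98) and without baseline array 1 (-0.89).

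Some markers of dendritic cell subsets changed beside these falls. The median of the 4 cDC2 markers was 10.68, 10.48 and 10.42 at baseline and 9.23 and 9.16 after interferon. Of these 4, Irf4 fell by 1.38 and Sirpa by 1.62, and Cd209a and Esam were not called. The summed intensity of the cDC2 list was 8734 to 11218 before and 5337 to 5484 after. That of 5 cDC1 markers overlapped, at 6251 to 8853 before and 8420 to 9246 after, with Tlr3 raised. In each of the 9 cell types 1 cDC1 marker was raised, lymphocytes included. Red pulp macrophage markers summed to 2128 to 3226 before and 1628 to 1701 after, and monocyte markers to 780 to 960 before and 606 to 626 after. The part of these marker levels in the Clec changes was not tested.

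**Figure D5:**
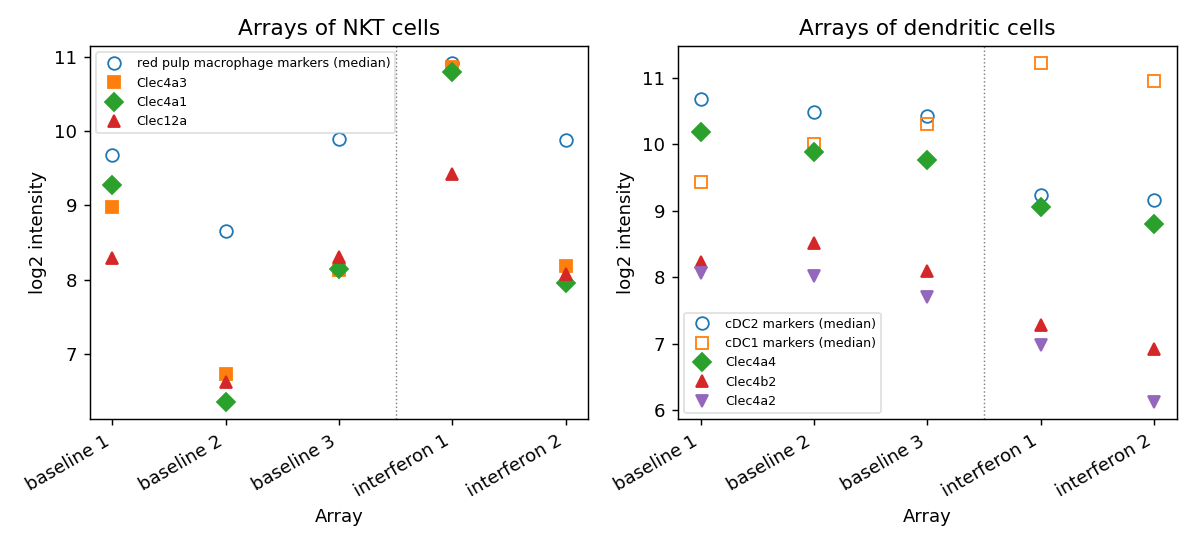
Log2 intensity on the 5 NKT arrays (left) and the 5 dendritic cell arrays (right) of named Clec genes (filled symbols) and the median of marker lists (open symbols); a dotted line parts baseline from interferon arrays. In NKT cells array 2 of the baseline is lowest and array 1 of the interferon group highest for genes and markers alike, and in dendritic cells the cDC2 median drops from 10.42 or more to 9.23 or less while the 3 Clec genes fall.

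In NKT cells Clec4a3 was the member called (2.89% of all genes raised). It went from 8.97, 6.73 and 8.13 to 10.86 and 8.18, a change of 1.58 (SE 0.48, adjusted p = 0.0358), and the groups overlapped. Clec4a1 showed the same array pattern, at 9.27, 6.34 and 8.14 and then 10.79 and 7.96 (change 1.46, adjusted p = 0.0884), and so did Clec12a, at 8.29, 6.62 and 8.31 and then 9.42 and 8.07 (change 1.01, adjusted p = 0.13). Interferon array 1 was the highest for all 3 genes. The change of Clec4a3 was 0.24 without that array, 0.97 without baseline array 2 and 0.75 without NKT array 1 of both conditions, and its adjusted p was 0.37 with NKT cells fitted alone. The red pulp macrophage median was 9.67, 8.66 and 9.90 at baseline and 10.92 and 9.88 after, and the macrophage list summed to 2510 to 7391 before and 3682 to 11152 after, with Fcgr1 and Mertk raised. Gata6 and Timd4, which mark peritoneal macrophages, were at 6.13 to 6.68 and 6.42 to 7.59 on the NKT arrays. The part of these markers in the Clec4a3 change was not tested.

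In macrophages Clec2d was the member called. The largest fall there was that of Clec1b, from a mean of 6.77 to 5.79 on the single interferon array, without overlap. Its change of -0.975 was short of the size required. The activating receptors Clec4d (10.09, 10.36 and 10.72, then 11.03) and Clec4e (9.89, 10.84 and 10.95, then 11.09) were above their baseline arrays on the single interferon array, and neither was called. Clec7a (9.37, 9.95 and 10.06, then 9.53) and Clec10a (7.73, 7.68 and 8.35, then 8.41) were within or next to their baseline ranges. In neutrophils, too, Clec7a (11.79 and 11.92, then 11.98 and 11.83) and Clec4e (10.44 and 10.92, then 10.69 and 10.95) overlapped, while Clec5a (10.38 and 10.64, then 11.19 and 11.09) did not, without a call. Clec7a, Clec4d, Clec4e, Clec5a and Clec4n were called in no type.

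Among genes that act behind these receptors, 2 were lowered in neutrophils and 1 was raised in NKT cells. Of 21 listed adaptors, kinases and transcription factors 19 were measured, with a median change between -0.38 (neutrophils) and -0.04 (NKT cells). In neutrophils Malt1, part of the CARD9 signalling complex, fell by 1.12 (SE 0.32) and Nfatc1, a calcium-regulated transcription factor, by 1.07 (SE 0.25), so that 2 of 19 were lowered where 2.85% of all genes were. Neither was called after quantile normalisation (-0.79 and -0.86) or without interferon array 1 (-1.03 and -0.96), nor Malt1 without either baseline array. Vav3, an exchange factor, was raised in NKT cells by 1.26 (SE 0.23), 1 of 19 where 2.89% of all genes were, and by 0.98 without baseline array 1. Its call was kept in 49 alternative fits and lost in 5. Vav3 averaged 7.83 before and 9.09 after interferon in NKT cells, and 8.98 in baseline macrophages. The part of macrophage markers on the NKT arrays in its change was not tested. Syk, Fcer1g, Tyrobp and Card9 were called in no type. Of 35 listed genes with a lectin domain but another name, 33 were measured. Beside Cd69, Ly75, the endocytic receptor DEC-205, rose in dendritic cells by 1.06 (SE 0.28), where Cd209d fell by 1.07 (SE 0.32). In neutrophils Cd72 fell by 1.71 (SE 0.32) and Fcer2a fell by 2.49 (SE 0.67), both genes of B cells, and in NKT cells Cd93 fell by 1.01 (SE 0.26). Fcer2a was at an adjusted p of 0.172 without neutrophil baseline array 1 and 0.117 without interferon array 1. The calls for Ly75 and Cd209d were lost without dendritic cell baseline array 1 or 2 or either interferon array, and that for Cd93 without NKT baseline array 2 or 3 or either interferon array.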

How the data were processed

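RNA was measured on 43 one-colour arrays. Per the submitters' processing notes the authors used Affymetrix Power Tools and RMA, which summarises probes and normalises across arrays; versions and build: not given in the sources used here. Deposited intensity values are linear, from 4.69 to 22042, and were log2-transformed without rescaling. Of 24922 probe sets, 21425 carried 1 symbol in the platform annotation, which can be old. A single limma model (version 3.58.1, R 4.3.3; lmFit and eBayes) covered the 18 groups with 25 residual degrees of freedom, so the single macrophage interferon array was assumed to vary like other groups. Two-sided p-values were Benjamini-Hochberg adjusted over 19752 genes within each comparison, and calls needed an adjusted p below 0.05 and a log2 difference of at least 1. Any member could be named, with per-array values for members called in an interferon comparison and baseline levels for members with a group mean of at least 8. Members, lists and tests were chosen with earlier results of these data known. The fit was tested on simulated data. Baseline arrays 1 and 2 share a preparation wording that other arrays lack, which was added as a term in an alternative fit. Promoter windows are from RefSeq (GRCm38.p6). The number of arrays limits precision. Each gene has 1 spread for all groups in the fit, so a wide spread in 1 group raises its SE in every comparison.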

Additional observations from a re-analysis of the deposited data

Results flagged for a closer look

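For 5 results the interferon effect in 1 cell type differed from the mean effect in the other 8 by a test of the difference itself (limma, adjusted over all genes). In dendritic cells the effect was lower for Clec4a2 by -1.42 (SE 0.36, adjusted p = 0.0252), for Clec4a4 by -1.41 (SE 0.28, adjusted p = 0.0019) and for Clec4b2 by -1.38 (SE 0.20, adjusted p = 2.52e-05). In macrophages it was higher for Clec2d by 1.20 (SE 0.23, adjusted p = 0.00497), a value that rests on 1 interferon array. In neutrophils it was higher for Clec4a4 by 2.03 (SE 0.30, adjusted p = 2.88e-05). These contrasts share arrays, since the mean of the other types for Clec4a4 in dendritic cells holds its rise in neutrophils and the reverse.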

How the results depend on the processing

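Of 61 results on single genes, the called list genes included, 696 comparisons other than those leaving out 1 array gave the same call in 654 and a lost call or changed sign of an uncalled value in 42. The count of raised pairs (7) was 3, of lowered pairs (4) was 2 and of differing effects (5) was 1 with baseline array 3 alone, a fit without neutrophils. Array weights gave 13 raised pairs and 15 differing effects, with the weights stopping short of convergence. Leaving out NKT array 1 of both conditions and gamma-delta T cell baseline array 1, chosen after seeing the data, gave 8 differing effects. With 1 array left out at a time, raised pairs ran from 4 (without neutrophil baseline array 1) to 13 (without NKT interferon array 2), and lowered pairs from 0 (without dendritic cell interferon array 2) to 4. Differing effects ran from 3 (without dendritic cell interferon array 2) to 14 (without NKT interferon array 2), and were 8 without NKT interferon array 1. Pairs higher at baseline ran from 31 to 35, members differing at baseline from 20 to 21, and members called on the mean change were 0 throughout. The macrophage interferon array, being the only one of its group, could not be left out. Same-numbered arrays did not deviate together in every type (correlations from -0.29 to 0.35), so the numbers were not taken as pairs, and the replicate block left 7 raised and 2 lowered pairs, losing Clec4a4 in dendritic cells (-0.95) and Clec9a in neutrophils (adjusted p = 0.0508) and, among list genes, Cd93 in NKT cells (-0.89). A filter on dim genes kept 22 of the 33 members.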
